A study of Saccharomyces cerevisiae with 16 samples.

Results

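Nonsense-mediated decay (NMD) is the cytoplasmic pathway that destroys mRNAs on which ribosomes stop too early. Its core helicase Upf1, with its partners Upf2 and Upf3, is recruited to such terminating ribosomes, and in budding yeast the mRNA is then decapped and degraded from its 5′ end by the exonuclease Xrn1. Besides mRNAs with a mutation, the pathway acts on normal transcripts that hold a short upstream open reading frame, an intron that was left in, a broken reading frame, or a start codon that ribosomes pass over. Because a stop codon is read by a ribosome, blocking translation also blocks the pathway.

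The mRNAs described here are the 150 open reading frames (ORFs) of Saccharomyces cerevisiae whose level rose most when UPF1 was deleted in glucose medium. They were taken from 5009 nuclear ORFs with a mean of at least 0.05 reads per nucleotide in wild type in glucose, as the 150 with the highest ratio of the upf1 mean to the wild type mean in glucose. ORFs whose names begin with YIR and 8 others were left out beforehand. The values that chose them are those of the 2 wild type and the 2 upf1 libraries in glucose, so every value from those 4 libraries is given as a description and supports nothing by itself.

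The study sequenced stranded, ribosomal RNA-depleted total RNA from 8 groups of 2 biological replicates, in a wild type strain of genotype MATa his3Δ1 leu2Δ0 met15Δ0 ura3Δ0 and in 2 deletion strains, upf1Δ::kanMX4 and xrn1Δ::kanMX4. Cells in mid-log phase in glucose synthetic medium were moved for 16 min to fresh glucose medium or to medium with glycerol and ethanol in place of glucose, called starved below. Wild type cultures were next given 100 µg/ml cycloheximide, which stops ribosomes during elongation, or DMSO in equal volume as a mock; for the deletion strains the labels name no solvent. Each deletion is a permanent loss in 1 strain, and the labels do not say how many clones were used.

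The deposited values are reads per nucleotide, taken as scaled to the RNA spike-ins added to each µg of total RNA. The labels do not state this scaling, which is inferred from spike-in totals that were alike in all libraries. On that reading the values are levels per total RNA and not per cell. Fewer mRNA molecules in a cell and more of other RNA cannot be told apart. By the commonest step between values, the libraries held an estimated 3375910 to 16619200 reads on ORFs without an intron, in the median 118 to 944 reads on a member, and a level of 0.05 corresponded to 22.6 to 94.8 reads per kb. UPF1 (listed as NAM7) stood at 0.615 and 0.582 in wild type in glucose and at 0.0141 and 0.0152 in the upf1 libraries, and XRN1 at 1.14 and 1.19 against 0.0858 and 0.0693 in the xrn1 libraries. The 4 cycloheximide libraries carry another prefix in the file header than the 12 others, so the drug and whatever the prefix stands for cannot be told apart. Among ORFs of the rule, upf1 replicate 1 in glucose was 1.22 times replicate 2 in the median, and 1.21 times among the 150.

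Several of the 150 end in, or hold, a stop codon that RefSeq's text or textbook knowledge places inside a longer ORF, split in the reference strain. The stretches around those stop codons (RefSeq, build R64; the stop codon in capitals, and the next start codon where it falls in the stretch) are shown because these ORFs are described as pieces of a longer one. They lie at IX:34060-34107 (minus strand), XI:656716-656763 (plus), XIII:437396-437443 (plus), XV:10086-10133 (plus) and IV:721260-721304 (minus).
NIT1 to YIL165C: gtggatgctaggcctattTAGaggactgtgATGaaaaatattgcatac
NFT1 to YKR104W: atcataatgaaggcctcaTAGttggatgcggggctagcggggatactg
YMR084W to YMR085W: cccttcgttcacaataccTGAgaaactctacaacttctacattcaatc
YOL163W to YOL162W: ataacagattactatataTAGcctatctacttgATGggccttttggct
CCW22: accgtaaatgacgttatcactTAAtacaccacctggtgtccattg
Behind NIT1 the second ORF follows in the same frame after 9 bases, behind YOL163W after 12 and behind NFT1 after 99, and in these 3 the frame continues beyond the stop codon. YMR085W follows YMR084W after 74 bases in a different frame. In CCW22, which RefSeq lists as a pseudogene related to the cell wall gene CCW12, the stop is codon 67 of the 137 annotated.

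An intron was found in 4 of the 141 members with a scanned coding sequence, or 2.84%, against 4.30% of the other ORFs of the rule and 1.76% of those at a similar wild type level of 0.05 to 0.2. Their introns are printed because an intron left in usually adds an early stop; the capitals mark the 5′ splice site, the CTAAC of the branch site and the last 3 bases. They lie at X:469184-469263 (minus strand), XVI:833694-833827 (plus), IV:254975-255044 (minus) and IV:1103810-1103892 (plus).
REC107: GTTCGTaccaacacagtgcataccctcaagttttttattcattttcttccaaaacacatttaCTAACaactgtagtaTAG
MAY24: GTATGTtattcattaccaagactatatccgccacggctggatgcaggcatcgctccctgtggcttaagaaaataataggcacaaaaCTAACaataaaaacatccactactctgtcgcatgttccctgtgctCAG
IWR1: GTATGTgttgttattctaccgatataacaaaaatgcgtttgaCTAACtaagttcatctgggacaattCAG
MCM21: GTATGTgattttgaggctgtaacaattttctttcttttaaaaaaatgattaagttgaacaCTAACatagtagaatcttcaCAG
Of 204 ORFs of the rule with exactly 1 intron, 156 (76.5%) begin it with GTATGT. The REC107 intron departs from that sequence by A3T and T4C, counted from the first base of the intron, and 2 of the 204 begin with GTTCGT. REC107 acts in meiotic recombination, and its intron is known to be spliced efficiently only in meiosis, with the help of Mer1.

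Out-of-frame start codons just before the annotated one were the third kind of feature looked at. They are shown as examples and not as a trait of the highest ratios. In the nearest 25 bases an ATG of any frame stood in 15.6% of members, 6.17% of other ORFs of the rule and 10.1% of those at a similar level. Among the 50 members with the highest ratio, 7 hold an ATG in the 27 bases before their start. In 6 of them it is out of frame and gives a short frame of 4 to 9 codons before a stop. ALR2, with 8 codons, is 1 of these 6 and is not printed. The 5 others are shown here (capitals mark every ATG, the last being the annotated start). They lie at V:290215-290244 (plus strand), IV:18564-18593 (minus), XVI:778556-778585 (plus), X:727378-727407 (plus) and VII:834480-834509 (minus).
RRT13: acattgattgtgtgggATGttgcgcaaATG
AAD4: tcaatcggcgATGcATGgtcaggctttATG
THI22: caatttccaaagcagtATGcctttcctATG
AAD10: cagtcagagacttggatcggtgaATGgATG
PEX35: taATGagagtatacacttgctaactatATG
In AAD10 the upstream ATG begins 4 bases before the start, and in PEX35, a peroxisomal protein, 25 bases before it.

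In wild type in glucose the 150 were low mRNAs. Their mean level ran from 0.0512 to 3.30 reads per nucleotide with a median of 0.0917, against a median of 0.265 over the 5009. In glucose without Upf1 their median was 0.320, against 0.275 over the 5009. The plot of levels by library shows this crossing: the 150 lay below the median ORF in wild type and slightly above it in both upf1 libraries.

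**Figure D1:**
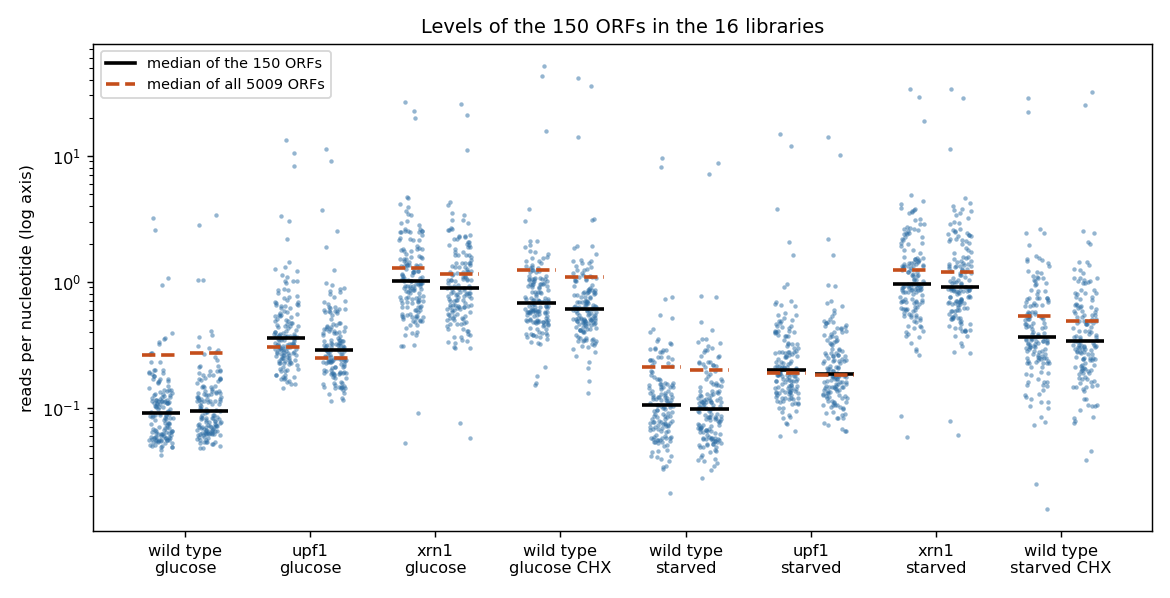
Level of each of the 150 ORFs (points) in each of the 16 libraries, in reads per nucleotide on a log axis, replicate 1 left and replicate 2 right in each group; solid bars are the median of the 150 and dashed bars the median of all 5009 ORFs of the rule. The solid bar lies below the dashed one in every group but the upf1 groups (0.0917 against 0.265 as the group means in wild type in glucose).

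The ratio of upf1 to wild type in glucose, which chose the members, ran from 2.53 to 34.5 with a median of 3.31, while the 5009 had a median of 0.923. Just inside the limit stood PAD1 and FRT2 at 2.55 and RDR1 at 2.53, and just outside it YOL150C at 2.53, YNR066C at 2.52 and YOL106W at 2.51. No gap separates the members from the next ORFs, and 277 of the 5009 had a ratio of 2 or more. By the choice of members all 150 had both upf1 libraries above both wild type libraries in glucose, a state shared by 24.1% of the 5009, from which nothing is read.

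Among the 25 members with the highest ratio were FLR1, PAU23, PAU7 and FLO5. FLR1, a plasma membrane exporter of drugs, had 0.111 and 0.112 in wild type in glucose and 0.771 and 0.590 in upf1, then 0.0987 and 0.1 in starved wild type and 0.396 and 0.406 in starved upf1. The libraries of FLR1 did not overlap between the strains in either medium. PAU23, a member of the seripauperin family of cell wall proteins, had 0.0558 and 0.0538 in wild type in glucose and 0.367 and 0.301 in upf1. PAU7 of the same family had 0.102 and 0.181 in wild type and 0.875 and 0.660 in upf1, with replicates further apart. The PAU genes are a multi-copy family whose reads can be shared, and only 2 of the 23 in RefSeq reached the level of the rule, both of them members, so their single values are uncertain; the same holds for FLO5, a flocculin, at 0.0648 and 0.0553 against 0.315 and 0.236.

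NMD4, a factor of the NMD pathway itself, had 0.119 and 0.127 in wild type in glucose and 0.618 and 0.606 in upf1, a ratio of 4.99. In starved cells NMD4 had 0.109 and 0.110 in wild type and 0.376 and 0.377 in upf1. Its replicates lay very close together in all 4 groups. TCA17, a subunit of the TRAPPII trafficking complex, had 0.159 and 0.199 in wild type against 0.852 and 0.881 in upf1 in glucose, and 0.0857 and 0.0927 against 0.395 and 0.396 in starved cells. NUT2, a subunit of the Mediator complex, had 0.126 and 0.147 against 0.678 and 0.609 in glucose. ATG16, which acts in autophagosome formation, had 0.0557 and 0.0652 against 0.310 and 0.247. That the strains do not overlap in glucose comes with the choice for all 150, against 24.1% of the 5009.

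Several members are pieces of a broken ORF. Of 35 ORFs at the level of the rule whose RefSeq text names a merged or broken ORF, 7 were members (20%). Members were 2.99% of all ORFs of the rule. YOL163W, whose frame continues into YOL162W, had 0.0525 and 0.0532 in wild type in glucose and 0.460 and 0.403 in upf1, the second highest ratio of all at 8.16. NIT1, a nitrilase fragment, had 0.133 and 0.136 against 0.648 and 0.567, and YIL165C downstream of it 0.170 and 0.215 against 0.818 and 0.595. NFT1, the first piece of an ABC transporter, had 0.0647 and 0.0675 against 0.313 and 0.223, and its second piece YKR104W 0.0499 and 0.0665 against 0.321 and 0.194. Both pieces of NIT1 and of NFT1 are members, so that they were raised together is fixed by the choice, and pieces that may share an mRNA are not independent measurements. YOL162W, below the level of the rule, had 0.0282 and 0.0302 in wild type in glucose and 0.247 and 0.213 in upf1. Over all 16 libraries 3 neighbouring pairs kept a nearly fixed ratio (SD of the log2 ratio under 0.1): CCW22 with YDR133C, YLR252W with SYM1 and YMR084W with YMR085W. CCW22 was the most abundant of the 150, with 3.23 and 3.37 in wild type and 13.2 and 11.3 in upf1 in glucose, and its reads can be shared with CCW12.

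Among the 4 genes with an intron, REC107 had 0.0875 and 0.112 in wild type in glucose against 0.553 and 0.469 in upf1. MAY24 had 0.103 and 0.0781 against 0.383 and 0.318, and IWR1, which acts in nuclear import of RNA polymerase II, 0.117 and 0.150 against 0.533 and 0.422. MCM21, a kinetochore protein, had 0.0703 and 0.0716 against 0.2 and 0.171. By the glucose ratio that chose the members, REC107 stood highest of the 4, at 5.12, and MCM21 lowest, at 2.62. In starved cells, which the choice did not use, REC107 and MAY24 were alike, with ratios of upf1 to wild type of 1.96 and 1.93. IWR1 had 1.68 and MCM21 1.36 there. The values cover whole features, so they do not tell spliced from unspliced RNA.

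The highest ratio, that of ZPS1, rested on libraries that stood apart. ZPS1, which encodes a cell wall protein known to be induced when zinc is scarce, had 0.0543 and 0.0493 in wild type in glucose and 3.29 and 0.287 in upf1. In starved cells it had 0.0550 and 0.0484 in wild type and 2.07 and 0.202 in upf1, and in xrn1 it had 2.6 and 0.633 in glucose and 2.87 and 0.753 in starved cells. Replicate 1 was thus the higher in all 4 groups of the deletion strains, while wild type replicates were alike. ZRT1, the high-affinity zinc transporter, had 0.948 and 1.03 in wild type and 8.24 and 3.69 in upf1 in glucose. RTC4 had 0.114 and 0.131 in wild type and 1.09 and 0.318 in upf1 in glucose.

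By a limit chosen after these values were seen, replicate 1 over 1.5 times replicate 2 in all 4 groups of the deletion strains, 3 of the 150 stood out, ZPS1, ZRT1 and RTC4, and 0 of the 150 stood out in the opposite direction. ADH4, an alcohol dehydrogenase also known to be raised in zinc shortage, had 0.349 and 0.366 in wild type in glucose, 1.30 and 0.756 in upf1, and 3.61 and 2.94 in xrn1. ZAP1, the transcription factor that drives these zinc genes, had 0.113 and 0.122, 0.367 and 0.241, and 1.78 and 1.18 in the same groups. The lowest upf1 library was also set against the highest wild type library. In starved cells, which the choice did not use, it was 3.67 times higher for ZPS1, 2.85 times for ZRT1 and 1.88 times for RTC4. In glucose it was 5.27, 3.57 and 2.42 times higher, but there the strains do not overlap by the choice of members. What sets replicate 1 of the deletion strains apart in these genes was not tested.

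**Figure D2:**
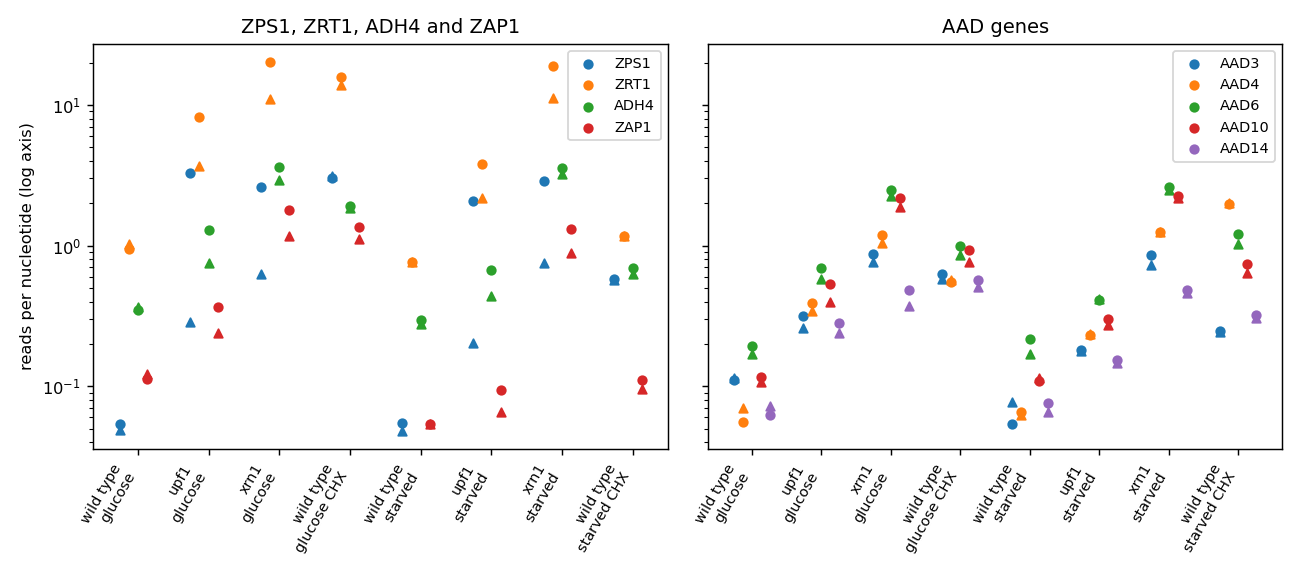
Level in each library, in reads per nucleotide on a log axis, of 4 zinc-related members (left) and of the 5 members with an AAD symbol in RefSeq (right); circles are replicate 1 and triangles replicate 2, with small sideways offsets by gene. ZPS1 in upf1 in glucose lies at 3.29 in replicate 1 and 0.287 in replicate 2, while the replicates of the AAD genes lie closer together and AAD4 is highest in starved wild type with cycloheximide, at 1.97 and 1.99.

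Starved cells give a test of the same deletion in 4 libraries that the choice of members did not use. With limma on log2(value + 0.00369) over 11599 features and Benjamini-Hochberg adjustment, 134 of the 150 were higher in starved upf1 than in starved wild type at an adjusted p under 0.05, 1 was lower and 15 passed in neither direction. Over all features 19.1% were higher, and over the 5009 ORFs 8.38% were higher and 32.9% lower. The median log2 change was 0.98 for the 150, −0.24 for the 5009 ORFs and 0.02 for all features. Both upf1 libraries lay above both wild type libraries for 144 of the 150, against 16.7% of the 5009.

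The scaling sets how many of the 150 pass. Scaled to the ORFs, which shifts the median feature by 0.16 on the log2 scale, 146 were higher against 32.7% of all features; scaled to the snoRNAs, which shifts it by −0.37, 58 were higher against 7.92%. The same 5009 ORFs were then 1.40% higher and 63.9% lower. The snoRNA factors also differed between replicates, at 0.758 and 0.984 in starved wild type and 1.00 and 1.38 in starved upf1. How much of the lower count goes with this spread and how much with the shift was not tested. Under each scaling 1 of the 150 was lower.

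YOL163W changed most among members with close replicates, by 2.40 ± 0.19 (log2 ± SE, adjusted p = 3.64e-06, limma), with 0.0591 and 0.0520 in starved wild type and 0.284 and 0.336 in starved upf1. ZPS1 had the largest estimate, 3.56 ± 1.12 (adjusted p = 0.0276, limma), with the discordant replicates given above. Next came PAU7 at 2.30 ± 0.33, TCA17 at 2.10 ± 0.10 and ISC10, a gene needed for sporulation, at 2.06 ± 0.13. YEL073C, an ORF of unknown function, rose by 1.99 ± 0.14 and FLR1 by 1.97 ± 0.11. NMD4 rose by 1.75 ± 0.10 (adjusted p = 6.63e-07, limma). These genes were also among the 25 with the highest ratio in glucose.

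GLG1, a glycogenin that primes glycogen synthesis, was the only one of the 150 that fell, by −0.47 ± 0.16 (adjusted p = 0.0357, limma), with 0.318 and 0.289 in starved wild type and 0.232 and 0.206 in starved upf1. In glucose it had 0.0544 and 0.0749 in wild type and 0.202 and 0.150 in upf1, an order that comes with the choice of members. Its starved libraries were separate in the opposite order. Its call did not hold when any 1 of the 4 libraries was left out. FRT2 at −0.17 ± 0.16, DCI1 at −0.13 ± 0.14 and ICL1, the isocitrate lyase of the glyoxylate cycle, at 0.02 ± 0.16 did not pass. In starved wild type all 4 of these genes stood above their level in glucose wild type, as with ICL1 at 0.105 and 0.108 against 0.0582 and 0.0534.

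The ratio of upf1 to wild type in glucose and the ratio in starved cells come from different libraries. Across the 150 their Spearman rho was 0.602 (Pearson r of the log2 ratios 0.752), and 0.594 without ZPS1; across all 5009 ORFs rho was 0.784. These are descriptions across genes, which are not independent replicates and share each library's depth. The median ratio was 3.31 in glucose and 2.00 in starved cells for the 150, and 0.923 and 0.841 for the 5009. The glucose ratio chose the 150, which raises its median, so the difference between the media is not read as a result.

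**Figure D3:**
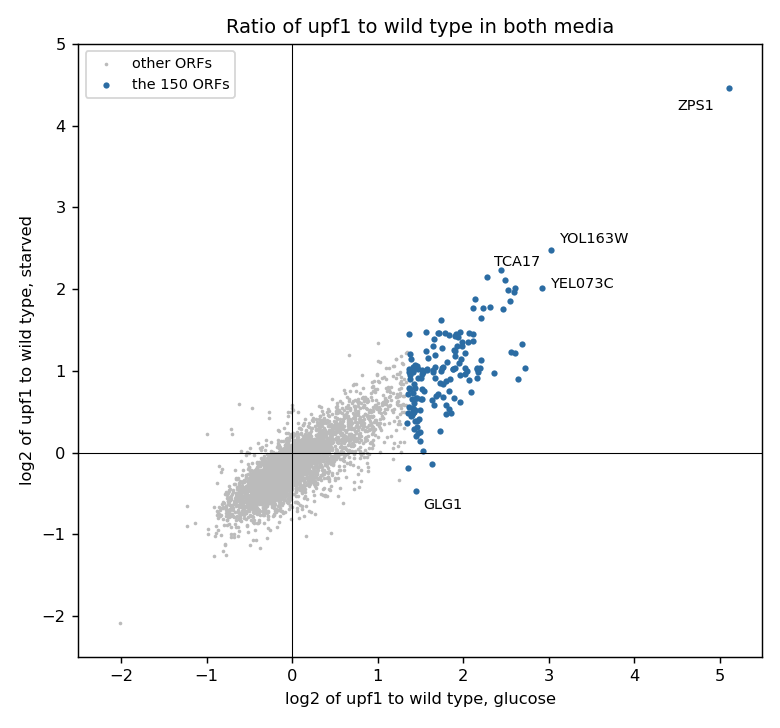
Log2 ratio of the upf1 mean to the wild type mean in glucose (horizontal) and in starved cells (vertical) for the 5009 ORFs, with the 150 in blue and the others in grey. Of the 150, 147 lie above 0 on the vertical axis; GLG1 is the lowest of the 150 there and ZPS1 the highest, with a log2 ratio between 4 and 5.

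Loss of Xrn1 raised nearly every ORF, the 150 included. In starved cells 148 of the 150 were higher in xrn1 than in wild type and 1 lower, while 93.1% of all features and 99.4% of the 5009 ORFs were higher and 0.259% of all features lower, so the count is that of ORFs in general. The size differed: the median log2 change was 3.26 for the 150 and 2.40 for the 5009. The 150 also had a lower median level in starved wild type, 0.103 against 0.205. ORFs of a similar level were not set beside them here, so whether the difference goes with level was not tested. Scaled to the ORFs, which shifts the median feature by −2.20, 121 of the 150 were higher and 11 lower, against 35.1% of all features higher and, among the 5009, 37.9% higher and 37.4% lower. In glucose, where the wild type libraries are those of the rule, the median ratio of xrn1 to wild type was 9.58 for the 150 and 4.14 for the 5009.

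YKR104W rose most, by 5.41 ± 0.23 (adjusted p = 8.52e-11, limma), from 0.0326 and 0.0276 in starved wild type to 1.38 and 1.47 in starved xrn1. KDX1, a kinase-like protein of the cell wall stress pathway, rose by 5.38 ± 0.13, from 0.0551 and 0.0543 to 2.45 and 2.40. NFT1 rose by 4.89 ± 0.15 and SRL3 by 4.77 ± 0.15. These 4 were far higher in xrn1 than in upf1, where KDX1 had 0.149 and 0.145.

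OPT2, an oligopeptide transporter, was the exception. It had 0.0746 and 0.0709 in wild type in glucose, 0.3 and 0.229 in upf1 and 0.0523 and 0.0577 in xrn1. In starved cells it had 0.141 and 0.120 in wild type, 0.185 and 0.180 in upf1 and 0.0585 and 0.0605 in xrn1, a fall of −1.08 ± 0.14 without Xrn1 (adjusted p = 8.18e-06, limma). In starved cells OPT2 was therefore higher without Upf1 and lower without Xrn1, in libraries that did not overlap. Both starved upf1 libraries lay above both starved wild type libraries for 16.7% of the 5009. In glucose the order of upf1 and wild type comes with the choice of members. YER188W, at 0.0741 and 0.0515 in starved wild type and 0.0866 and 0.0782 in starved xrn1, did not pass (0.39 ± 0.25).

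Set against each other in starved cells, 146 of the 150 were higher in xrn1 than in upf1 and 1, OPT2, was lower (−1.56 ± 0.14), where 91.9% of all features and 99.6% of the 5009 ORFs were higher and 0.466% of all features lower. The median log2 difference was 2.29 for the 150 and 2.57 for the 5009. Scaled to the ORFs, a shift of −2.40, the split turned: 23 of the 150 were higher in xrn1 and 82 lower, against 21% of all features higher and 33.8% lower, and 36.1% of the 5009 ORFs higher and 36.5% lower. YEL073C did not pass as deposited (−0.28 ± 0.14), with 0.956 and 0.937 in starved upf1 and 0.858 and 0.705 in starved xrn1. Nor did YER188W and ZPS1.

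Cycloheximide raised most of the 150 as well. In starved wild type cells 144 were higher with the drug and none lower at an adjusted p under 0.05 (limma), where 65.8% of all features and 80.5% of the 5009 ORFs were higher and 8.32% of all features lower. The median log2 change was 1.84 for the 150 and 1.27 for the 5009, again without a set of ORFs of a similar wild type level. After scaling to the ORFs, a shift of −1.01, 115 were higher and 13 lower, against 33.5% of all features higher and 30.2% lower, and 44.5% and 37.6% of the 5009 ORFs. In glucose the median ratio with to without the drug was 6.50 for the 150 and 4.13 for the 5009, given as a description.

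AAD4, a putative aryl-alcohol dehydrogenase, rose most under the drug in starved cells, by 4.87 ± 0.12 (adjusted p = 1e-10, limma), from 0.0657 and 0.0624 to 1.97 and 1.99. In glucose with the drug it had only 0.547 and 0.565. GTT2, a glutathione transferase, rose by 3.41 ± 0.15, from 0.145 and 0.135 to 1.61 and 1.44. The 6 that did not pass were YPL114W, SWC7, TCA17, SPO16, RTC4 and ZRT1. TCA17 had 0.0857 and 0.0927 without and 0.103 and 0.104 with the drug in starved cells, but 1.24 and 1.18 with it in glucose. SWC7, a subunit of the SWR1 chromatin complex, had 0.0903 and 0.0993 without and 0.0777 and 0.106 with the drug, and 0.742 and 0.690 with it in glucose.

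**Figure D4:**
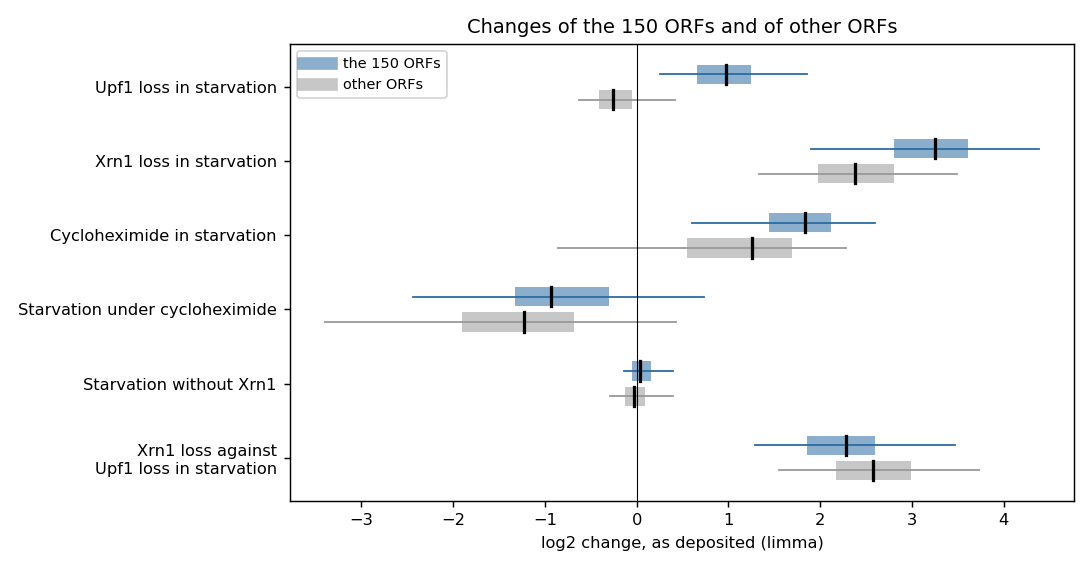
Log2 changes in 6 tested comparisons for the 150 ORFs (blue) and the other ORFs of the rule (grey), as deposited; boxes span the 25th to 75th percentile, lines the 5th to 95th, and black bars are medians. The 150 lie to the right of the other ORFs for the loss of Upf1 (median 0.98), the loss of Xrn1 (3.26) and cycloheximide (1.84), and slightly to the left for xrn1 against upf1 (2.29).

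Among the cycloheximide libraries, features in general were lower in starved than in glucose cells, and the 150 no more often than others. The drug was given after the change of medium. What is called starvation under cycloheximide below therefore compares starved with glucose cells that both received it. In these libraries 17 of the 150 were higher and 110 lower in starved than in glucose cells, where 6.99% of all features were higher and 73.7% lower, and among the 5009 ORFs 6.01% were higher and 85.3% lower. The median log2 change was −0.93 for the 150 and −1.22 for the 5009. Scaled to the ORFs, a shift of 1.11, 76 of the 150 were higher and 31 lower, against 32.8% and 32.4% of all features and, among the 5009, 39.8% higher and 42.5% lower. Scaled to the snoRNAs, a shift of 0.24, 20 were higher and 82 lower, against 7.91% of all features higher and 60.2% lower, so the direction of the set turned with the scaling to the ORFs and not with that to the snoRNAs.

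ZRT1, ZAP1 and TCA17 fell furthest. ZRT1 fell by −3.66 ± 0.37 (adjusted p = 1.07e-06, limma), from 15.7 and 14.0 in glucose to 1.17 and 1.16 in starved cells, and ZAP1 by −3.52 ± 0.25, from 1.35 and 1.11 to 0.111 and 0.0960. TCA17 fell by −3.50 ± 0.10. AAD4 rose by 1.83 ± 0.12, GLG1 by 1.41 ± 0.16, and GPX1, a glutathione peroxidase, by 1.40 ± 0.13.

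Without Xrn1, 5 of the 150 were higher in starved cells and none lower (limma), against 2.8% of all features higher and 0.233% lower, and 3.21% and 0.0799% of the 5009 ORFs; 12 of the 150 had an unadjusted p under 0.05. The 5 were ICL1 (1.07 ± 0.16, adjusted p = 0.00183), YLR252W, GPX1, SHH4 and SYM1, of which YLR252W and SYM1 are the neighbouring pair with a nearly fixed ratio. ICL1 went from 0.451 and 0.384 to 0.889 and 0.867. With any 1 of the 4 libraries left out, 0.667 to 1.33% of the 150 were higher in place of 3.33%. After scaling to the ORFs 14 were higher, against 6.58% of all features. The median log2 change was 0.03 for the 150 and −0.02 for the 5009. Tested as a difference between the 2 starvation responses (limma, chosen after the data were seen), 106 of the 150 were lower under cycloheximide than without Xrn1 and 7 higher, against 69.2% of all features lower and 3.1% higher and, among the 5009 ORFs, 84% lower and 2.58% higher; the count is near that of features in general.

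The starvation ratios that share libraries with the rule are given as descriptions. In wild type the median ratio of starved to glucose was 0.970 for the 150 and 0.716 for the 5009, and in upf1 it was 0.591 and 0.637. Over the 8 groups the highest mean of a member was in an xrn1 group for 120 of the 150 (50 in glucose and 70 in starved cells), in a cycloheximide group for 28 and in upf1 in glucose for 2, YEL073C and OPT2. Among the 5009 ORFs the highest mean was in an xrn1 group for 50.3% and in a cycloheximide group for 49.6%. The lowest mean was in wild type without the drug for 147 members and for 27% of the 5009, a count that the choice of members partly fixes.

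Taken by family, groups that were picked after the values were seen, all 5 genes with an AAD symbol in RefSeq at the level of the rule were members: AAD3, AAD4, AAD6, AAD10 and AAD14, which encode putative aryl-alcohol dehydrogenases. With AAD16 (YFL057C), which RefSeq does not list under that symbol, the AAD members were 6. In glucose AAD10 had 0.116 and 0.107 in wild type and 0.535 and 0.394 in upf1, and AAD14 had 0.0626 and 0.0727 against 0.282 and 0.239. All 6 were higher in starved upf1, from 0.85 ± 0.13 for YFL057C to 1.8 ± 0.12 for AAD4 (log2 ± SE), with AAD14 at 1.06 ± 0.14 and AAD6, which RefSeq lists as a pseudogene, at 1.10 ± 0.14. Reads may be shared within the family.

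Siderophore genes, which bind and import iron chelates, gave 4 of 7 at the level of the rule: FIT3, ARN1, ARN2 and ENB1. FIT3, a cell wall protein that retains siderophores, had 0.131 and 0.127 in wild type in glucose and 0.657 and 0.460 in upf1, and rose by 1.34 ± 0.14 in starved cells. ENB1, the enterobactin transporter, had 0.274 and 0.288 against 0.859 and 0.688 and rose by 0.66 ± 0.11 in starved cells. Thiamine genes gave 3 of 9 with a THI symbol. THI22 had 0.0934 and 0.0877 against 0.562 and 0.439, THI21, a kinase of thiamine synthesis, 0.0878 and 0.0768 against 0.401 and 0.313, and THI6 0.158 and 0.164 against 0.468 and 0.394. SAG1, the cell surface agglutinin of alpha cells, was a member in this MATa strain at 0.107 and 0.118 against 0.445 and 0.310, low in absolute level.

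Genes whose RefSeq text names meiosis or sporulation gave 11 of 198 at the level of the rule (5.56%), ISC10, REC107 and SPO16 among them, and uncharacterized or hypothetical proteins 37 of 461 (8.03%), where members were 2.99% of all ORFs of the rule. By consecutive numbers in the ORF names, 34 of the 150 stood in 17 adjacent pairs, 13 of them on the same strand, among them YOL163W with BDS1, a sulfatase. By position in RefSeq, which lacks some of the 150, 28 members stood in 14 pairs, 11 of them on the same strand. Pairs among other ORFs were not counted, so whether members cluster was not tested. Overlapping or read-through transcripts make such pairs less than independent.

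Upstream ATGs were scanned on the sense strand in the 50 bases before the start codon of 141 members and 4794 other ORFs of the rule; the motif is ATG alone, and the transcript's true start is not known. Of the members 58 (41.1%) held at least 1, against 17.1% of the other ORFs and 24.8% of the 1760 other ORFs at a similar wild type level of 0.05 to 0.2. In the nearest 25 bases the shares were 15.6%, 6.17% and 10.1%, and in 100 bases 70.2%, 48.4% and 57.6%. An upstream frame that ended before the start codon was found in 23.4% of members, 8.61% of other ORFs and 12.4% of those at a similar level, and one that overlapped the start out of frame in 20.6%, 8.68% and 12.7%. These shares are descriptions, with no test.

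The share did not peak at the highest ratios. It was 31.4% for ranks 1 to 75, 50.7% for ranks 76 to 150, 44.8% for ranks 151 to 300, 38.9% for ranks 301 to 600 and 10.4% beyond rank 2400. Members with an upstream ATG had a median ratio of 2.86 in glucose and 2.00 in starved cells, and members without one 3.48 and 2.02. Wild type level also rose along these ranks, from a median of 0.0845 in the first to 0.355 in the last.

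**Figure D5:**
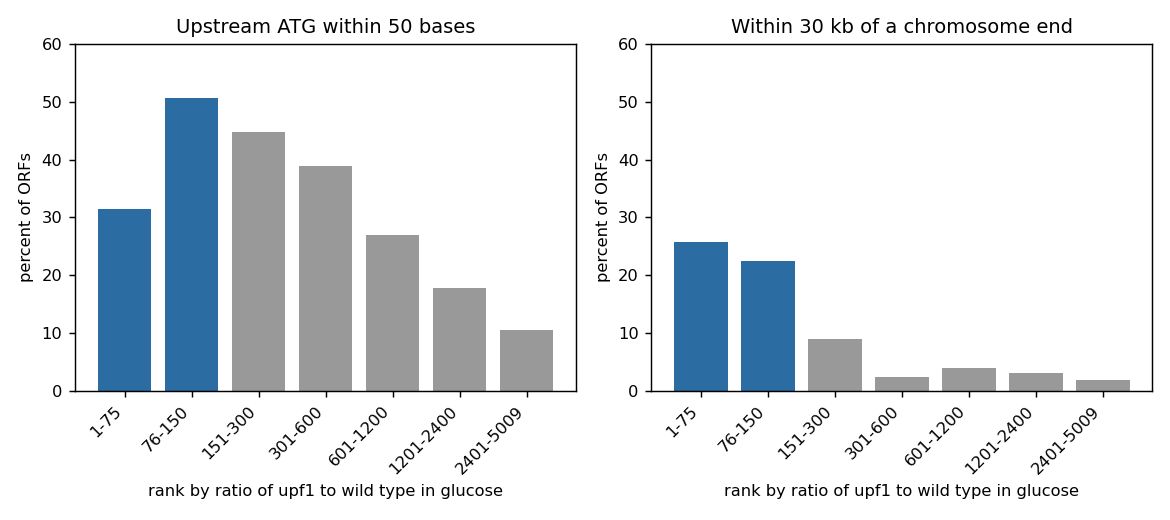
Percent of ORFs with an ATG in the 50 bases before the start codon (left) and percent lying within 30 kb of a chromosome end (right), by rank of the ratio of upf1 to wild type in glucose; blue bars are the 150. The left share falls from 50.7% at ranks 76 to 150 to 10.4% in the lowest ranks, and the right share from 25.7% at ranks 1 to 75 to 1.82%.

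Many members lay near chromosome ends. Within 30 kb of a chromosome end lay 34 of the 141 (24.1%), against 2.63% of the other ORFs and 2.73% of those at a similar level. They include AAD3, AAD4, AAD10 and AAD14, ZRT1 and ADH4, ARN1, ARN2 and ENB1, COS7 and COS10, YOL163W, BDS1, NFT1 and OPT2, so the families above and this position overlap. Their median ratio was 3.49 in glucose and 2.12 in starved cells, against 3.25 and 1.98 for members further in. Both an upstream ATG and such a position were found in 13 members, and neither in 62.

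Members were shorter than other ORFs, with a median coding length of 945 bases against 1290, and against 1449 at a similar level. An A at the third base before the start codon was found in 56.0% of members and 61.7% of other ORFs. In 79.4% of members and 78.3% of other ORFs the next ATG inside the coding sequence was out of frame. GC content was 40.1% and 39.8% in the median, so these 3 features were close to those of ORFs in general.

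Genes picked from textbook knowledge of the pathway did not all behave like the members in starved upf1. Beside the counts below, 19.1% of all features were higher and 15.9% lower, and 8.38% and 32.9% of the 5009 ORFs. Of 20 genes of NMD and mRNA decay 2 were higher, NMD4 and EBS1 (0.66 ± 0.13), and 8 were lower, the deleted UPF1 among them, with a list median of −0.29 against 0.02 for all features. Of 17 genes with a described upstream ORF, GCN4 among them (0.04 ± 0.08), none was higher and 6 were lower, with a list median of −0.29, and none was a member. Among 13 ORFs known as broken in the reference strain, 10 were higher and none lower, with a median of 0.97, and 5 were members: AAD6, AAD16 (YFL057C), NIT1, YIL165C and YOL163W. Several of the 13 are pieces of the same broken gene, as NIT1 with YIL165C and YOL162W with YOL163W, so they are not independent. YOL162W rose by 2.42 ± 0.19 but lay below the level that the rule asks for in wild type.

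Other described NMD targets gave 4 higher of 7 and none lower, with PGA1 at 0.94 ± 0.11 and FRE2, a ferric reductase, at 1.24 ± 0.15. Meiotic genes with an intron gave 3 higher of 10, REC107 (0.95 ± 0.15), HFM1 (0.81 ± 0.17) and SPO22 (0.73 ± 0.21), and 1 lower, AMA1 (−0.77 ± 0.25). Of 4 genes described for leaky scanning 1 was higher, SPT10 (0.38 ± 0.14), and of 2 genes with a programmed frameshift neither passed. In starved xrn1 cells 72 of the 73 genes of these lists were higher, where 93.1% of all features were.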

How the data were processed

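The authors deposited 1 table of signal values, reads per nucleotide of each feature, for 16 libraries, with 8 further columns that equal the group means and stay unused. HISAT2 2.2.0, featureCounts 2.0.0, Trim Galore and DESeq2 appear in the submitters' processing notes beside build R64, without their roles. Spike-in totals were alike in all libraries, so values are taken as scaled to the spike-ins, which the labels do not state.

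Members were ranked by the ratio of group means. The members, gene lists and scans were chosen with earlier results of these data known. Whole reads could not be recovered (39.6 to 62.4% of low values were whole within 0.02), so no count test was run. log2(value + 0.00369), the pseudocount being the 5th percentile of positive values, was fitted with limma 3.58.1 (R 4.3.3, trended eBayes, 8 residual and 4.43 prior degrees of freedom) over all 16 libraries for the 11599 features with a mean at or above the pseudocount. Fold changes of low genes are understated on this scale. Benjamini-Hochberg adjustment ran over all tested features within a comparison, and the procedure was tested on simulated data. With 2 libraries a group, an exact permutation test could not pass 0.05.

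Named genes were the 25 members with the highest ratio, members with an intron or in a gene list, the 5 largest and 5 smallest changes in a comparison, and the 3 ORFs on either side of the limit; others were chosen after their values were seen. Features and sequences came from RefSeq (R64), which matched 142 of the 150; 141 were scanned. Python 3.11.15 and pandas 2.3.3 were used.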

Additional observations from a re-analysis of the deposited data

Results flagged for a closer look

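The starvation response of the 150 under cycloheximide differed from that without Xrn1, by a test of the difference itself (limma interaction, adjusted p under 0.05) chosen after the data were seen: 106 of the 150 were lower under the drug and 7 higher, against 69.2% of all features lower and 3.1% higher, and 84% and 2.58% of the 5009 ORFs. The count is near that of features in general and is not a result about the 150. The median difference was −0.95 on the log2 scale for the 150 and −1.19 for the 5009 ORFs. ZRT1 (−3.63 ± 0.52) and TCA17 (−3.45 ± 0.15) had the largest differences downward, and AAD4 (1.67 ± 0.16) and GTT2 (1.15 ± 0.21) the largest upward. The drug, the strain and the prefix of the library names differ together between these arms and cannot be told apart.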

How the results depend on the processing

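Shares below are percent of the 150 that passed in the leading direction. As deposited they were 89.3% higher for the loss of Upf1, 98.7% for the loss of Xrn1, 96% for cycloheximide, 73.3% lower for starvation under cycloheximide, 3.33% higher for starvation without Xrn1 and 97.3% higher for xrn1 against upf1. Pseudocounts 10 times larger or smaller, other filters on low values and a second scaling to the spike-ins kept each share within 1.5 times. Scaled to the ORFs, starvation under cycloheximide gave 20.7% lower, starvation without Xrn1 9.33% and xrn1 against upf1 15.3%. Scaled to the snoRNAs, the loss of Upf1 gave 38.7% and starvation without Xrn1 0%. With only the 2 groups compared in the fit, starvation without Xrn1 gave 6.67%, and with the 75 highest members 1.33%. A level minimum of 0.5, which selects other ORFs, gave 22% for the loss of Upf1 and 6% for starvation without Xrn1. Asking also for a 2-fold change gave 42% for the loss of Upf1, 44.7% for starvation under cycloheximide and 0.667% for starvation without Xrn1. The cause of these moves was not tested.

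Leaving out 1 library at a time gave 77.3 to 85.3% for the loss of Upf1, 98.7 to 98.7% for the loss of Xrn1, 94.7 to 96% for cycloheximide, 67.3 to 75.3% for starvation under cycloheximide, 0.667 to 1.33% for starvation without Xrn1 and 96.7 to 98% for xrn1 against upf1; a lone library was assumed to vary like the others. Between the 2 groups of each tested comparison, same-numbered replicates did not deviate together over all tested features (correlations of deviations −0.0376 to 0.0546). Glucose and starved libraries of upf1, or of wild type without the drug, were not checked against each other in this way. ZPS1, ZRT1 and RTC4 were higher in replicate 1 of all 4 groups of the deletion strains. With the replicate block the share was 92% for the loss of Upf1 and 77.3% for starvation under cycloheximide, and each share stayed within 1.5 times. A fit without the cycloheximide libraries, added after the data were seen, gave 89.3% for the loss of Upf1 and 4% for starvation without Xrn1.

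Of the 41 named members followed through the alternatives, these changed sign in the loss of Upf1; other members were not followed: scaled to the ORFs, FRT2 (0.000522) and DCI1 (0.0429); scaled to the snoRNAs, DFP2 (−0.0566), ICL1 (−0.41), YLR252W (−0.293) and MCM21 (−0.0014); and ICL1 without upf1 starved replicate 1 (−0.0605) or wild type starved replicate 1 (−0.000368), and YLR252W without wild type starved replicate 2 (−0.00667). Left out singly, libraries gave ICL1 −0.0605 to 0.0988 and YLR252W −0.00667 to 0.304. Depth limits the lowest members, at 22.6 to 94.8 reads per kb for a level of 0.05.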
